A study of Mus musculus with 6 samples.

Results

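Receptors for noradrenaline, endothelins and purines were examined in GLAST+ cells of the neonatal mouse cerebellum. The 9 genes were chosen by symbol: the adrenergic receptors Adra1a, Adra1b, Adra2a and Adrb1, the endothelin receptors Ednra and Ednrb, the ADP receptor P2ry1, and the adenosine receptors Adora1 and Adora2b. On the array they are represented by 13 of 55681 probes that are not controls, out of 34836 gene names in all. A+/G+ cells, positive for the astrocyte surface antigen ACSA-2 and for the glutamate transporter GLAST, were compared with A-/G+ cells, which carry GLAST without ACSA-2. Each fraction was represented by 3 samples of 50000 wild-type cells, described in the labels as biological triplicates of postnatal days 1 to 3 from CD1 mice, whereas the paper states days 0 and 1 and a C57BL/6 background. According to the methods, cerebella of either sex were pooled. A+/G+ cells were enriched with beads against ACSA-2 in a single step, so that ACSA-2+ cells without GLAST could be retained. A-/G+ cells were obtained in 2 steps: cells positive for L1CAM, ACSA-2, CD45, PSA-NCAM or Ter119 were first depleted, and GLAST+ cells were then selected.

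All of these receptors are G protein coupled. Adra1a, Adra1b and P2ry1 act mainly through Gq and phospholipase C, which releases calcium from intracellular stores, while Adra2a and Adora1 act through Gi and lower cAMP, and Adrb1 and Adora2b act through Gs and raise it. Noradrenaline reaches the cerebellum from the locus coeruleus and evokes calcium signals in Bergmann glia, the radial astroglia of the Purkinje cell layer, whereas ATP, ADP and adenosine arise outside cells where ATP is released and broken down. Ednrb is widely expressed by astroglia and binds all endothelins, and Ednra, which prefers endothelin 1 and endothelin 2, is best known from vascular smooth muscle.

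Each sample was hybridized to 1 array with a single dye, Cy3, and values are given here as log2 intensities after quantile normalization. The comparison used limma over all probes, and a gene passed at a Benjamini-Hochberg adjusted p of 0.05 or less. Where a gene had more than 1 probe, its brightest probe gave its value. The A-/G+ arrays were dimmer before normalization, with a 75th percentile of intensity of 55.9, 112 and 250 for replicates 1, 2 and 3, compared with 329 to 332 on the A+/G+ arrays, and between 18336 and 24730 of their probes were well above background compared with 26469 to 26654. Because no slide held arrays of both fractions, a slide effect cannot be told apart from the fraction. The sort antigens followed the labels for Atp1b2, the gene of ACSA-2, at 12.82 ± 0.14 in A+/G+ and 10.66 ± 0.31 in A-/G+ (mean ± SD, n = 3 each, limma adjusted p = 0.00725). Slc1a3, the gene of GLAST, was bright in both fractions, at 13.39 ± 0.19 in A+/G+ and 14.59 ± 0.51 in A-/G+ (n = 3 each, limma adjusted p = 0.0733).

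Adra2a, Ednra and Adora2b were higher in A+/G+ cells, whereas no receptor passed as higher in A-/G+ cells. Thus 3 of 9 genes passed in the direction of A+/G+ and 0 in the direction of A-/G+, compared with 5.63% and 4.82% of all gene names. By probes, 4 of 13 passed upward in A+/G+ and 0 in A-/G+, compared with 4.65% and 4.64% of all probes. The same 4 probes also had medians at least 4-fold apart, a limit that the study's methods add to the test and that 1.53% of all probes met with higher values in A+/G+ and 0.399% with higher values in A-/G+. All A+/G+ arrays lay above all A-/G+ arrays for 4 genes, namely the 3 that passed and Adora1, and the reverse held for 0 of 9, compared with 14.9% and 24.0% of all gene names. None of the receptors with a higher mean in A-/G+ had an unadjusted p under 0.05 in limma, and the methods' t-test also called 0 of them after adjustment. Since the RNA came from whole fractions, fewer cells expressing a receptor and less of its RNA per cell cannot be told apart. With 3 arrays against 3, an exact permutation test cannot give a p below 0.1 (two-sided), so that the limma fit across all probes carries the comparison.

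**Figure D1:**
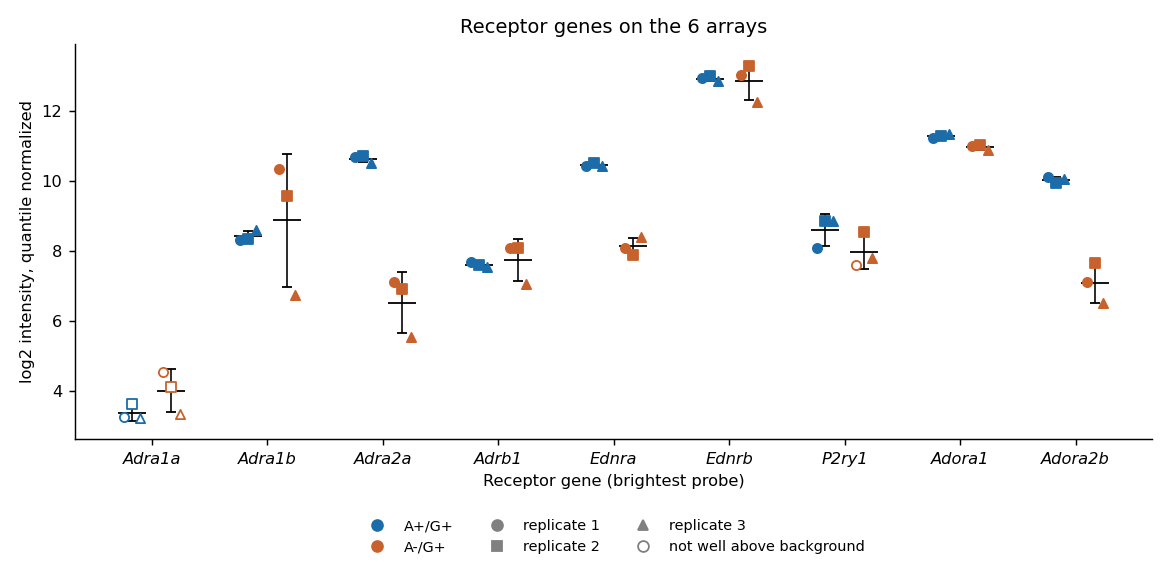
Log2 intensity (quantile normalized, y axis) of the brightest probe of each receptor gene (x axis) on the 3 A+/G+ arrays (blue) and the 3 A-/G+ arrays (orange), with marker shapes for replicates, open symbols for values not well above background, and bars for the mean and SD. Adra2a, Ednra and Adora2b are separated by more than 2 log2 units, Ednrb lies near 13 in both fractions, and the A-/G+ values of Adra1b spread from 6.73 to 10.32.

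The sequence upstream of the transcription start is shown for the 3 receptors that passed, to set side by side what lies before genes with the same direction of difference. The windows are the 250 bases before the start in RefSeq on GRCm38.p6, read 5′ to 3′ on the gene's strand: chr19:54045009-54045258 (plus strand) for Adra2a, chr8:77724453-77724702 (minus strand) for Ednra and chr11:62248734-62248983 (plus strand) for Adora2b. Capitals mark matches to the TATA box TATAAA, the CCAAT box CCAAT, the GC box GGGCGG and the cAMP response element TGACGTCA, each searched on both strands.
Adra2a: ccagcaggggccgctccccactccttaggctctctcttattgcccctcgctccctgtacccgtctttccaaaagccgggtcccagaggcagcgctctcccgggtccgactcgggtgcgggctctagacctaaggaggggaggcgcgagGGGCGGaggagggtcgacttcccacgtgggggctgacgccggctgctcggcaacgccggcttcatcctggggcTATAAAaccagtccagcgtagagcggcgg
Ednra: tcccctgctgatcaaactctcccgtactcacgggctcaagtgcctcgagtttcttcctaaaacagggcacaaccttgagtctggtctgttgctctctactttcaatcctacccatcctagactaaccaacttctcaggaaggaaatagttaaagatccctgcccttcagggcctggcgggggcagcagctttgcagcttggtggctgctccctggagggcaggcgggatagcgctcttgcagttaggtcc
Adora2b: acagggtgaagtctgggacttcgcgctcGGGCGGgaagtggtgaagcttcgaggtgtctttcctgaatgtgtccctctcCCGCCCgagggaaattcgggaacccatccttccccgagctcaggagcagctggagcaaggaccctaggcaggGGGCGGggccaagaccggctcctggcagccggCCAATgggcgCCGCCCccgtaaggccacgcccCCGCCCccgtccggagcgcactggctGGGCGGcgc
No matches overlapped one another. The Adra2a window held 1 TATA box starting 29 bases before the start and 1 GC box, and 67.6% of its bases were G or C. The Adora2b window held 6 GC boxes and 1 CCAAT box, with 69.6% G or C. The Ednra window held none of these letters and had 54.8% G or C, close to the median of 52.4% over all 32851 windows of the table. The TATA box was present in 12.4% of all windows, the CCAAT box in 33.8%, the GC box in 32.7% and the cAMP response element in 1.55%. No motif was therefore shared by all 3 windows. Of the 9 receptors, 8 had an entry in the table.

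Adra2a, the alpha 2A adrenergic receptor that couples to Gi, differed most among the receptors. Its probe (chr19:54123363-54123422, plus strand, array annotation on mm9) measured 10.68, 10.69 and 10.51 in the A+/G+ replicates 1, 2 and 3, compared with 7.11, 6.92 and 5.53 in those of A-/G+. The A+/G+ arrays were nearly equal, the A-/G+ array of replicate 3 was the lowest of all, and the fractions did not overlap. The difference was 4.11 ± 0.45 on the log2 scale (estimate ± SE, limma adjusted p = 0.0124, 95% confidence interval 2.94 to 5.28), and the medians were 13.5-fold apart. Before normalization the scanner gave intensities between 2410 and 2850 in A+/G+ and between 40.2 and 69.5 in A-/G+, and the probe was well above background on all 6 arrays. Its adjusted p rose above 0.05 whenever 1 A+/G+ array was left out (0.0587, 0.0646 and 0.0634 without replicates 1, 2 and 3), while the difference stayed between 4.07 and 4.16.

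Adra1b, the alpha 1B adrenergic receptor that couples to Gq, did not pass, and its values depended on the A-/G+ array. The brightest probe (chr11:43589067-43589126, minus strand, mm9) measured 8.31, 8.34 and 8.59 on the A+/G+ arrays and 10.32, 9.56 and 6.73 on the A-/G+ arrays. Replicates 1 and 2 of A-/G+ therefore lay above and replicate 3 below every A+/G+ array. The difference was -0.46 ± 0.99 (limma adjusted p = 0.796), with a 95% confidence interval from -3.00 to 2.09 that includes large differences in either direction. Without replicate 3 of A-/G+ the difference was -1.53 (limma adjusted p = 0.0383), higher in A-/G+. Without replicate 1 of A-/G+ it was 0.27, with the opposite sign (limma adjusted p = 0.896). The second probe (chr11:43588147-43588206) was dim, at 3.74 to 66.4 intensity units on the A-/G+ arrays, and not well above background on replicate 1. It gave 0.20 ± 1.23 (limma adjusted p = 0.936), and its profile did not follow that of the first probe (Pearson's r = -0.569 over the 6 arrays, which include both fractions), so that the probes disagree.

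Adrb1, the beta 1 adrenergic receptor that couples to Gs, measured 7.67, 7.59 and 7.54 on the A+/G+ arrays and 8.08, 8.07 and 7.04 on the A-/G+ arrays (chr19:56799215-56799274, plus strand, mm9). Again replicates 1 and 2 of A-/G+ lay above and replicate 3 below all A+/G+ arrays. The difference was -0.13 ± 0.32 (limma adjusted p = 0.816, 95% confidence interval -0.95 to 0.68), and it was -0.48 without replicate 3 of A-/G+ (limma adjusted p = 0.0206). Its second probe gave 0.10 ± 0.50 (limma adjusted p = 0.922) and was not well above background on replicate 1 of A-/G+. Adra1a, the alpha 1A receptor, was on no array well above background, at 3.22 to 3.64 in A+/G+ and 3.34 to 4.55 in A-/G+, and no level can be given for it (chr14:67352013-67352072, mm9).

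Ednra, the endothelin receptor A, was higher in A+/G+ cells and varied least among the receptors that passed. Its probe (chr8:80186985-80187044, minus strand, mm9) measured 10.42, 10.51 and 10.41 on the A+/G+ arrays and 8.09, 7.89 and 8.38 on the A-/G+ arrays. The fractions were far apart, and here replicate 3 was the highest A-/G+ array. The difference was 2.32 ± 0.14 (limma adjusted p = 0.00390, 95% confidence interval 1.97 to 2.68), the medians were 5.01-fold apart, and the gene passed without each of the 6 arrays in turn, with adjusted p between 0.00419 and 0.0275. The intensities before normalization were 2223 to 2507 in A+/G+ and 76.3 to 425 in A-/G+, well above background on all 6 arrays.

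Ednrb, the endothelin receptor B, was bright in both fractions, with no difference beyond its spread. The probe shown here (chr14:104220870-104220929, minus strand, mm9) measured 12.92, 12.98 and 12.85 on the A+/G+ arrays and 13.04, 13.28 and 12.24 on the A-/G+ arrays. The A+/G+ arrays lay between replicate 3 and the other A-/G+ arrays. The difference was 0.07 ± 0.29 (limma adjusted p = 0.908), and the 95% confidence interval from -0.67 to 0.81 leaves room for a difference of less than 1 log2 unit either way. The second probe gave 0.13 ± 0.32 (limma adjusted p = 0.824) and followed the first closely (r = 0.985 over the 6 arrays). Without replicate 3 of A-/G+ the differences were -0.24 and -0.22 (limma adjusted p = 0.226 and 0.128), with the sign turned.

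P2ry1, the receptor for ADP that couples to Gq, measured 8.07, 8.85 and 8.84 on the A+/G+ arrays and 7.59, 8.53 and 7.80 on the A-/G+ arrays (chr3:60812600-60812659, plus strand, mm9). The fractions overlapped, since replicate 2 of A-/G+ lay above replicate 1 of A+/G+, and replicate 1 of A-/G+ was not well above background. The difference was 0.61 ± 0.35 (limma adjusted p = 0.395, 95% confidence interval -0.29 to 1.52).

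Adora1, the adenosine A1 receptor that couples to Gi, measured 11.23, 11.29 and 11.34 on the A+/G+ arrays and 11.01, 11.01 and 10.88 on the A-/G+ arrays (chr1:136095833-136095892, minus strand, mm9). The fractions did not overlap, but the difference was small, at 0.32 ± 0.07 (95% confidence interval 0.15 to 0.49), and missed the threshold (limma adjusted p = 0.0507). It fell just below the threshold after normexp background correction (adjusted p = 0.0440) and with outlier spots kept (0.0480), and reached 0.286 when arrays were scaled by their 75th percentile.

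Adora2b, the adenosine A2B receptor that couples to Gs, was higher in A+/G+ cells on both of its probes. The brighter one (chr11:62079834-62079893, plus strand, mm9) measured 10.10, 9.94 and 10.04 on the A+/G+ arrays and 7.12, 7.65 and 6.50 on the A-/G+ arrays. Replicate 3 was again the lowest A-/G+ array, and the fractions did not overlap. The difference was 2.93 ± 0.30 (limma adjusted p = 0.0113, 95% confidence interval 2.15 to 3.72), and the medians were 7.57-fold apart. The second probe (chr11:62078754-62078813) measured 8.57, 8.55 and 8.63 on the A+/G+ arrays and 5.31, 6.22 and 4.87 on the A-/G+ arrays, and it was not well above background on replicate 1 of A-/G+. It gave 3.12 ± 0.36 (limma adjusted p = 0.0138) and followed the first (r = 0.998 over the 6 arrays). After normexp background correction the second probe's difference was 2.00, and it passed. When replicate 1, 2 or 3 of A+/G+ was left out, the brighter probe had an adjusted p of 0.0545, 0.0563 and 0.0599, while the difference stayed between 2.90 and 2.98. The adenosine receptors thus gave a small difference for Adora1 and a large one for Adora2b, in the same direction, and the endothelin receptors a large one for Ednra and none beyond the spread for Ednrb.

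Adora2b is the receptor for which 2 separate probes passed, and Adrb1 and Ednrb likewise each had 2 probes whose results can be set side by side. Of these pairs, the probe nearer to the start of the transcript is shown, as deposited with the array, for Adora2b from base 643 of the transcript, for Adrb1 from base 380 and for Ednrb from base 1101, the last being also the brighter probe of its pair. Their places on mm9 are chr11:62078754-62078813 for Adora2b, chr19:56797242-56797301 for Adrb1 and chr14:104220870-104220929 for Ednrb, and no base is singled out.
Adora2b: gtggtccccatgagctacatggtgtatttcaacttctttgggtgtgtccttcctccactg
Adrb1: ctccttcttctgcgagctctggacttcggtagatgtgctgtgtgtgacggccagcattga
Ednrb: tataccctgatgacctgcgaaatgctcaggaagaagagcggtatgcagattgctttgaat
Their contents of G and C were 50.0%, 55.0% and 45.0%, respectively.

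**Figure D2:**
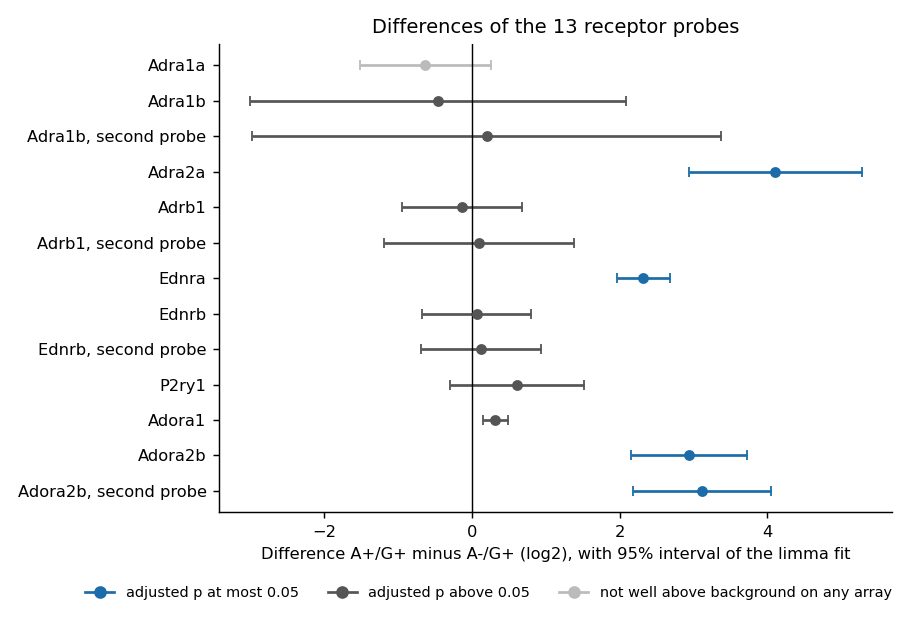
Difference between A+/G+ and A-/G+ on the log2 scale (x axis) for each of the 13 probes (y axis), with the 95% confidence interval of the limma fit from 3 arrays per fraction. The intervals of Adra2a, Ednra and both Adora2b probes lie above 1.9, that of Adora1 runs from 0.15 to 0.49, and the widest belong to the Adra1b probes.

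The A-/G+ arrays differed among themselves more than the A+/G+ arrays did. For the brightest probes the range over the A+/G+ arrays was between 0.09 and 0.79, and over the A-/G+ arrays between 0.13 and 3.59. Replicate 3 of A-/G+ lay below the mean of replicates 1 and 2 for Adra1b (by -3.21), Adra2a (-1.49), Adrb1 (-1.03), Ednrb (-0.91), Adora2b (-0.88), P2ry1 (-0.26) and Adora1 (-0.13), and above it for Ednra (0.39). Adra1a, on no array well above background, is left out here. Except for P2ry1 and Adora1, the listed receptors moved on replicate 3 by more than the median gene name. That median covers 34836 gene names of unlike brightness, 14432 of them on no array well above background. The median gene name's level on replicate 3 was 0.322 away from the mean of the other A-/G+ replicates in either direction. On the same array the general astroglia markers (mean 11.17) and the Bergmann glia markers (10.80) were at their lowest among the A-/G+ arrays, and the endothelial markers (8.39) and the neuron markers (9.77) at their highest, and the part of these in the receptor values was not tested. The calls for Adra2a, Ednra and Adora2b held without replicate 3 of A-/G+, with limma adjusted p of 0.00362, 0.00419 and 0.00814, and their differences were then 3.61, 2.45 and 2.64.

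**Figure D3:**
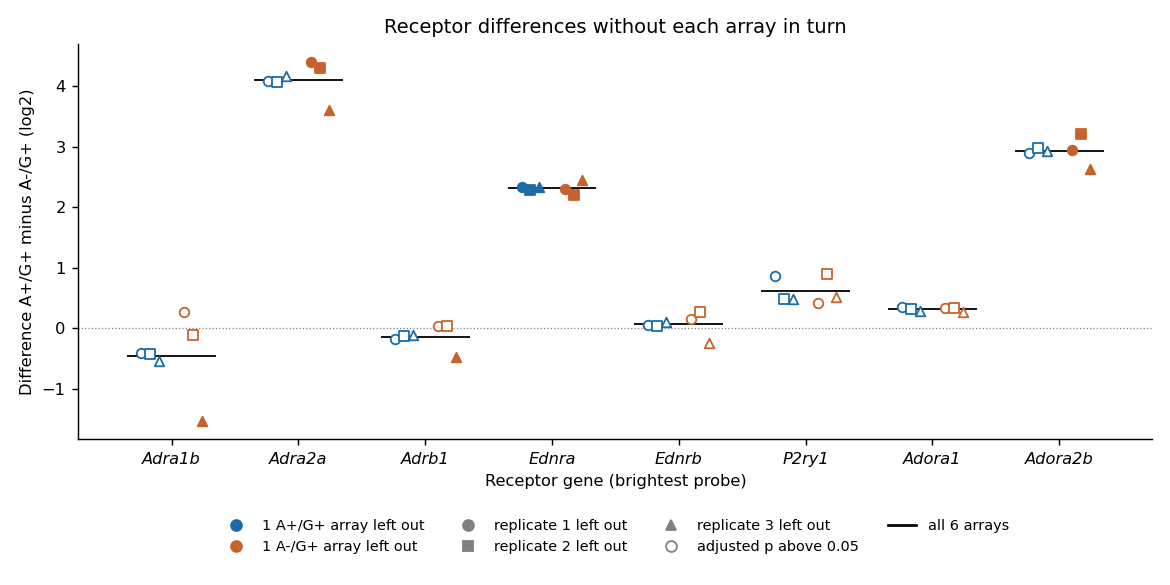
Difference between A+/G+ and A-/G+ on the log2 scale (y axis) for 8 receptors (x axis) when 1 A+/G+ array (blue) or 1 A-/G+ array (orange) was left out, beside the value from all 6 arrays (line), with filled symbols for adjusted p at most 0.05. Ednra stays filled throughout, and Adra1b and Adrb1 are filled only without replicate 3 of A-/G+, at -1.53 and -0.48.

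Markers of cell types moved with the fractions and with replicate 3 of A-/G+. All 7 Bergmann glia markers were higher in A-/G+ (limma, median difference -3.08), among them Gria1 (-3.58), Wif1 (-3.08) and Npy (-3.40). The mean of this list was 8.16 to 8.53 on the A+/G+ arrays and 10.80 to 11.32 on the A-/G+ arrays. Of 10 general astroglia markers, Gfap (3.03), Gja1 (3.03) and S100b (1.33) passed as higher in A+/G+ and Aldh1l1 (-0.64) as higher in A-/G+, and the mean of the list was 12.11 to 12.27 in A+/G+ and 11.17 to 11.96 in A-/G+.

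Markers of several other cell types were also higher in A+/G+, the direction of all calls that follow. Of 5 markers of oligodendrocyte precursors 3 passed as higher in A+/G+, Olig1 by 4.43, Olig2 by 4.23 and Pdgfra by 1.70, and the list's mean was 10.12 to 10.45 in A+/G+ and 7.44 to 8.51 in A-/G+. Of 8 markers of pericytes and smooth muscle, which are cells known to carry Ednra, 3 passed as higher in A+/G+, of which Myh11 was on no array well above background. This list's mean was 8.02 to 8.28 in A+/G+ and 5.70 to 6.94 in A-/G+, and on the A-/G+ arrays it was highest on replicate 3 (6.94), as was Ednra. That is not particular to this list. The oligodendrocyte precursor, endothelial, ependymal, neuron, granule cell, erythroid and microglia lists were also highest on replicate 3 among the A-/G+ arrays. The general astroglia, Bergmann glia, meningeal fibroblast and Purkinje cell lists were lowest there. Endothelial markers averaged 8.65 to 9.05 in A+/G+ and 5.91 to 8.39 in A-/G+, with 1 of 7 passing (Cdh5, 1.80), and meningeal fibroblast markers 12.64 to 12.89 and 10.04 to 11.56, with 2 of 5 passing. Purkinje cell markers averaged 7.43 to 8.63 and 4.41 to 4.64, with 4 of 5 passing. Calb1 and Car8 were well above background throughout A+/G+ but never in A-/G+. Ppp1r17, the marker of this list that did not pass, was not well above background in either fraction. Ependymal markers averaged 8.99 to 9.70 and 4.61 to 5.97, with 4 of 5 passing.

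Few calls were made for the remaining lists. Neuron markers (7 genes) averaged 9.70 to 10.32 in A+/G+ and 8.53 to 9.77 in A-/G+, microglia markers (7 genes) 4.81 to 6.51 and 5.32 to 6.22, and erythroid markers (4 genes) 7.93 to 8.51 and 6.64 to 7.71. None of these passed in limma, where 2 neuron, 1 microglia and 3 erythroid markers had an unadjusted p under 0.05, or in the methods' t-test. Granule cell markers averaged 7.57 to 7.92 and 7.16 to 8.36, and Pax6 passed as higher in A-/G+ (-1.54). Ptprc for leukocytes and Gabra6 for mature granule cells were not well above background on any array. The part of other cell types in the receptor differences was not tested.

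**Figure D4:**
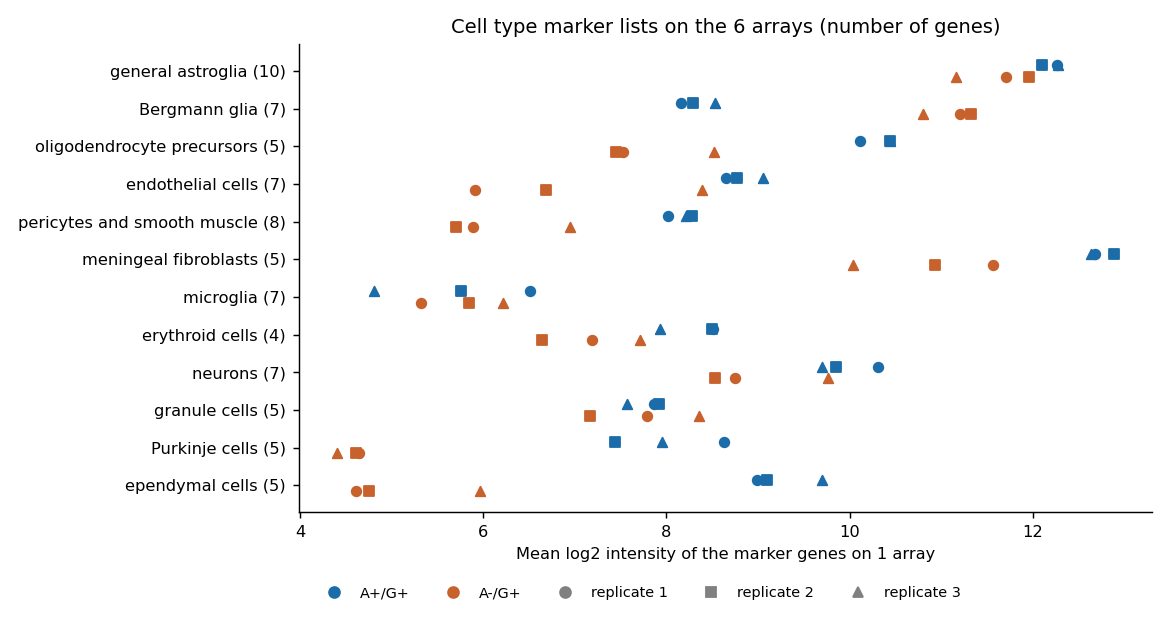
Mean log2 intensity of each cell type's marker genes (x axis) on each of the 6 arrays, with the number of genes in parentheses (y axis), A+/G+ in blue and A-/G+ in orange, and marker shapes for replicates. Bergmann glia markers lie at 10.80 to 11.32 in A-/G+ and at 8.16 to 8.53 in A+/G+, and the endothelial list on replicate 3 of A-/G+ (8.39) lies near the A+/G+ arrays.

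The other genes of the pathways, 79 in 11 lists, were shifted toward A+/G+ by their median (0.31, compared with -0.05 over all gene names). By their brightest probes, 12 of 79 passed in limma as higher in A+/G+ and 1 as higher in A-/G+, compared with 5.63% and 4.82% of all gene names. In the methods' t-test 6 and 0 of the 79 passed. Other probes of the same genes did not always give the same call. In the list of noradrenaline synthesis, uptake and breakdown, the monoamine oxidases Maob (2.84, adjusted p = 0.00817) and Maoa (1.37, adjusted p = 0.0192), which break down noradrenaline, were higher in A+/G+. Maob measured 7.46, 7.67 and 7.92 in A+/G+ and 4.82, 5.28 and 4.44 in A-/G+, where it was well above background on 1 of 3 arrays. The synthesis enzymes Ddc and Th gave 0.97 and -0.34 by their brightest probes, which did not pass. Of the 2 probes of Ddc, 1 passed as higher in A+/G+. In the methods' t-test 1 gene of the noradrenaline list passed by its brightest probe. The brightest of the other adrenergic receptors, Adra2c, gave 1.01 (adjusted p = 0.121).

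Of 6 endothelin ligands and processing enzymes, Ece1, which cleaves the endothelin precursor, was higher in A+/G+ (1.29, limma adjusted p = 0.0476). Ece2 gave -0.36 (limma adjusted p = 0.292). In the methods' t-test 0 of these 6 genes passed. Among 7 other P2Y receptors, P2ry14, a receptor for UDP-sugars, was higher in A+/G+ at 6.89, 7.12 and 6.98 compared with 4.64, 3.99 and 4.85 (2.50, limma adjusted p = 0.00970). It was well above background on 1 of the 3 A-/G+ arrays. None of the 7 P2X receptors, which are ATP-gated channels, passed by its brightest probe in limma or in the methods' t-test. In limma 2 of them had an unadjusted p under 0.05. The brightest of them, P2rx7, gave -0.84 (limma adjusted p = 0.294), but 1 of its 3 probes passed as higher in A-/G+. Adora2a and Adora3, the remaining adenosine receptors, did not pass, and Adora3 was on no array well above background.

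Genes of the list of purine ectoenzymes and adenosine handling were also among those that passed. Entpd2, which converts ATP to ADP, measured 10.08, 10.01 and 10.38 in A+/G+ and 8.53, 8.09 and 7.84 in A-/G+, and was higher in A+/G+ by 2.01 (limma adjusted p = 0.0117). The phosphatase Alpl was higher by 1.20 (limma adjusted p = 0.0458). The purine nucleoside phosphorylase Pnp was higher by 1.15 (limma adjusted p = 0.00367), with 1 of its 2 probes passing. The other 8 genes of this list, with Adk at 0.018 and the nucleoside transporter Slc29a1 at -0.023, did not pass. In the methods' t-test 2 genes of the list passed.

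Downstream of the receptors, Adcy8 (1.98, limma adjusted p = 0.0249) and Adcy2 (1.73, adjusted p = 0.0254) of the 9 adenylyl cyclases, which make cAMP, were higher in A+/G+. The brightest probe of Adcy5 gave 0.71 (limma adjusted p = 0.206), but 2 of its 3 probes passed as higher in A+/G+. Adcy6 gave -0.45 (limma adjusted p = 0.173). Of 9 G protein alpha subunits only Gna13 passed by its brightest probe, as higher in A+/G+ (0.88, limma adjusted p = 0.0143), with 1 of its 4 probes passing. The brightest probe of Gnas, the subunit of Gs, gave 0.23 (limma adjusted p = 0.256), but 2 of its 4 probes passed as higher in A+/G+. None of 7 phospholipase C beta and IP3 receptor genes passed in limma (2 had an unadjusted p under 0.05, 1 in each direction) or in the methods' t-test, with Itpr2 at 0.39 and Itpr1 at 0.60. Adrbk2, a kinase that phosphorylates activated receptors, was the only pathway gene whose brightest probe passed as higher in A-/G+. This probe measured 11.40, 11.19 and 10.82 in A-/G+ compared with 10.07, 9.68 and 10.02 in A+/G+ (-1.21, limma adjusted p = 0.0284). Of the 2 probes of Adrbk2, 1 passed. In the methods' t-test 0 of the 9 adenylyl cyclases and 0 of the 7 receptor kinases and arrestins passed. Arrb1 gave 0.60 (limma adjusted p = 0.0752). Without replicates 1, 2 or 3 of A+/G+ the number of pathway genes that passed as higher in A+/G+ was 4, 3 and 3. Maob and Pnp passed without each of the 6 arrays in turn, with adjusted p of at most 0.0465 and 0.0251, whereas Adrbk2 passed in 1 of these 6 settings, without replicate 3 of A-/G+ (0.0175), and otherwise reached up to 0.102. After normexp background correction the differences of Maob, P2ry14, Adcy8 and Ece1 were smaller, at 1.54, 1.22, 0.92 and 0.79, and all of them passed.

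**Figure D5:**
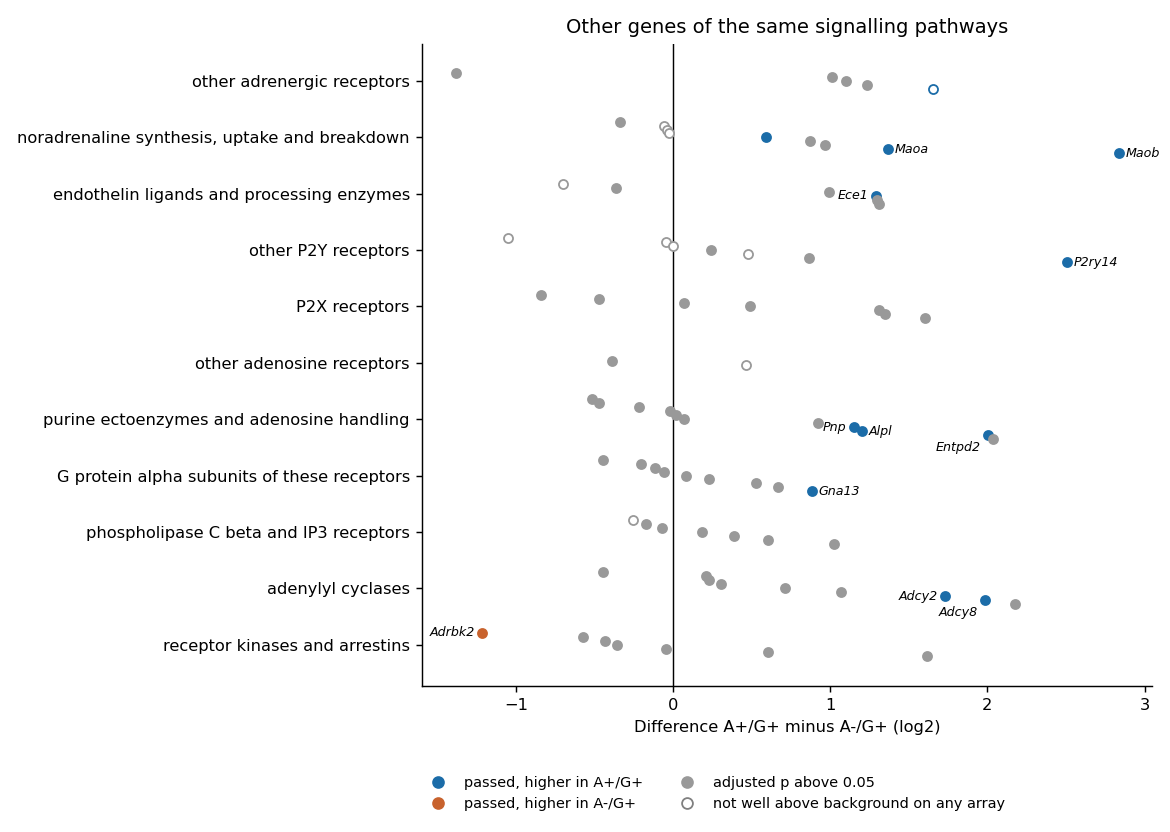
Difference between A+/G+ and A-/G+ on the log2 scale (x axis) of 79 genes in 11 pathway lists (y axis), with blue for genes that passed as higher in A+/G+, orange for A-/G+, grey for adjusted p above 0.05, and open symbols for genes not well above background on any array. Names are given for the genes that passed and are described in the text, of which Maob (2.84) and P2ry14 (2.50) lie farthest to the right, and Adrbk2 alone is orange.

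The genes with the most similar profile over the 6 arrays were sought for the 3 receptors that passed, among 13686 gene names well above background on all arrays, by the root mean square distance of log2 values centered on each gene's mean. For Adra2a these were Cybrd1 (0.176), Slc13a3 (0.265) and Ppp1r3c (0.332). Their own differences were 4.04, 4.57 and 4.10. For Ednra they were Lamc3 (0.0607), Osmr (0.119) and Rtp4 (0.120), with differences of 2.32, 2.28 and 2.17. For Adora2b they were Gfap (0.149), Gja1 (0.187) and Il34 (0.224), with differences of 3.03, 3.03 and 2.66. Gfap and Gja1 are on the list of general astroglia markers, of which Aldh1l1 passed as higher in A-/G+ (-0.64). Because the distance spans both fractions, differences close to that of the receptor follow from the way these genes were chosen.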

How the data were processed

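For each of the 6 arrays the authors deposited background-corrected spot intensities from Feature Extraction 10.7.3.1, and for all arrays a quantile normalized table of log2 values, used here as an alternative. Outlier-marked and control spots were removed, the log2 intensities were quantile normalized, and replicate spots were averaged per probe. Both fractions entered 1 limma fit (version 3.58.1, R 4.3.3) on all 55681 probes with Benjamini-Hochberg adjustment, in place of the study's t-test. The fit was also run on simulated data with the same spread in both fractions, which does not cover the wider spread of the A-/G+ arrays. No other filter was applied. The number of arrays limits the precision. The receptors, gene lists and tests were chosen with earlier results of these data known. Named are all receptors, the pathway genes that passed (at most 6 per list) with the 2 brightest others per list, at most 4 markers per list by size of difference, the 3 most similar profiles, and the sort antigens. Positions are those of the array annotation on mm9, and upstream sequences are from RefSeq on GRCm38.p6. Exon and UTR annotation was not used here. Some genes of the lists are counted but not reported by name here. Alternatives were another scaling, background correction, table, filter, test, probe rule and replicate block, and each array left out.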

Additional observations from a re-analysis of the deposited data

How the results depend on the processing

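Adra2a, Ednra and Adora2b kept their direction under every alternative run and passed under all but the replicate block and, for Adra2a and Adora2b, the omission of an A+/G+ array. With the replicate block their adjusted p was 0.0724, 0.0647 and 0.0776 at differences of 4.11, 2.32 and 2.93, and 0 probes and 0 pathway genes passed (11671 and 31 at an unadjusted p under 0.05). The replicate numbers are not known to pair the samples (correlations of deviations 0.0877, 0.0555 and 0.00577), so that this block was kept as an alternative. With each array left out, the difference ranged from 3.61 to 4.40 for Adra2a, 2.64 to 3.22 for Adora2b, -1.53 to 0.27 for Adra1b (second probe -1.12 to 0.96), -0.48 to 0.042 for Adrb1 (second probe -0.41 to 0.53) and -0.24 to 0.28 for Ednrb (second probe -0.22 to 0.33).

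Scaling the arrays by their 75th percentile moved the median of all probes to -1.02 from -0.04 and gave 604 and 938 probes called as higher in A+/G+ and A-/G+, in place of 851 and 222, with 1227 passing as higher in A+/G+ in place of 2589. Under it Ednrb gave -0.052, Adrb1's second probe -0.024, Adra1b's second probe -0.51, Ptprc -0.48, Gnas -0.016, Adk -0.026, Adora3 -0.78 and P2ry12 -0.79, with the sign turned. Normexp gave 234 and 48 called probes, 20 and 3 pathway genes, -0.15 for Adra1b's second probe and 0.28 for Adora1, whose call it gained (also gained, at 0.32, with outlier spots kept). The methods' t-test gave 487 and 121 called and 1351 and 1197 passing probes, with 6 and 0 pathway genes. Averaging the probes of a gene gave 2 pathway genes higher in A-/G+ and turned Gna12 (0.018), Adk (-0.053) and Ece2 (0.067). The cause of these changes was not tested.

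With each array left out, called probes ranged from 340 to 1458 (A+/G+) and 77 to 490 (A-/G+), passing probes from 816 to 4437 and 404 to 4578, and pathway genes from 3 to 16 and 0 to 6, each highest without replicate 3 of A-/G+ and lowest without an A+/G+ array (0 also without replicate 1 or 2 of A-/G+). Ranges that crossed 0 were Adrbk1 (-0.097 to 0.0092), Adk (-0.16 to 0.11), Slc29a1 (-0.24 to 0.36), Adora2a (-0.96 to 0.11), Th (-0.54 to 0.049) and P2ry12 (-0.18 to 0.70). The slide could not be fitted as a block. Only bounds are known for probes not well above background, and the dimmer A-/G+ arrays limit what low signals there show.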
